A study of Mus musculus with 36 samples.

Results

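Cytochrome P450 genes were followed through mouse small intestine, as whole tissue and as 2 cell preparations of lnc13 KO and WT mice. The members were all genes whose mouse symbol is Cyp followed by a digit, with pseudogenes of the suffix -ps left out. They numbered 100 of 27179 genes in the count files, 99 of them annotated as protein coding and 1, Cyp2d13, as a transcribed pseudogene. Reads had been found for 92 of them, and 46 passed the filter on low counts.

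P450 enzymes are haem proteins that insert an oxygen atom into a substrate, with electrons passed on by a reductase. In the small intestine, the enterocytes of the villus carry P450s of the CYP1, CYP2 and CYP3 families that oxidise drugs, food compounds and other foreign chemicals before they reach the liver. CYP4 and CYP2J enzymes oxidise fatty acids and eicosanoids, and other members act on sterols, bile acids, steroids, vitamin D and retinoic acid. Ligand-activated receptors (AhR, PXR and CAR) and the gut transcription factors HNF4 and GATA4 are known to control many of the drug-metabolising members.

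The libraries came from gluten-challenged mice that carried DQ8, an HLA allele linked to coeliac disease, with lnc13, a long noncoding RNA, either deleted (lnc13-KO-DQ8, here KO) or present (lnc13-WT-DQ8, here WT), so KO and WT mice both had DQ8 and gluten. Intraepithelial lymphocytes (IEL), lamina propria lymphocytes (LPL) and whole small intestine (tissue) each gave 2 KO and 2 WT libraries, 12 in all, described as biological replicates. The labels used here give no age, sex, background strain or intestinal segment, and do not say whether animals were pooled or whether one mouse gave several preparations. The lnc13 transcript itself was not analysed here.

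Each library held 10186522 to 13620975 reads in genes, and levels are given as CPM, read counts scaled to library size, after TMM normalisation, which allows for differences in RNA composition. CPM is not per transcript length, so levels are compared between libraries and not between genes. The labels were set against cell type markers. In IEL libraries 7 T cell markers summed to 201 to 652 CPM, against 30.3 to 65.7 CPM in tissue, yet 7 pan-epithelial markers summed to 8546 to 9825 CPM in IEL libraries and 18101 to 23304 CPM in tissue. LPL libraries held 7914 to 10861 CPM of the pan-epithelial markers, 4824 to 9989 CPM of 9 exocrine pancreas markers and 2.25 to 87.2 CPM of the T cell markers, the highest T cell value in LPL WT replicate 1. Both cell preparations thus contained much epithelial RNA, and "IEL" and "LPL" are used below as the names of preparations, not of lymphocytes. Of 7 liver markers, the summed level stayed at 3.57 to 4.50 CPM in IEL, 6.59 to 7.78 CPM in LPL and 2.27 to 3.26 CPM in tissue libraries.

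Promoter sequences of 4 members are shown, each of which had no overlap between its IEL and tissue libraries: Cyp3a11 and Cyp2c65 stand for the drug group, Cyp1a1 for the AhR targets and Cyp51 for the sterol group. The windows run from 250 bases before to 50 bases after the annotated start and were taken from RefSeq on GRCm38.p6. Capitals mark exact matches, on either strand, to the AhR/ARNT core GCGTG, the GATA motif AGATAA, the HNF4 motif CAAAGTCCA, the nuclear receptor half-site AGGTCA or the TATA motif TATAAA.
Cyp3a11 (chr5:145879805-145880104, minus strand): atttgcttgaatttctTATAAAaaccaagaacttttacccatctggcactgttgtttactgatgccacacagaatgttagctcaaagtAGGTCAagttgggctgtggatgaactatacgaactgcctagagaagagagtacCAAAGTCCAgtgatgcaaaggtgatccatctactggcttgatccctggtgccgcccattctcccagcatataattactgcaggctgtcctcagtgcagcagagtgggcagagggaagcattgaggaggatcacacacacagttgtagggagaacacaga
Cyp2c65 (chr19:39060756-39061055, plus strand): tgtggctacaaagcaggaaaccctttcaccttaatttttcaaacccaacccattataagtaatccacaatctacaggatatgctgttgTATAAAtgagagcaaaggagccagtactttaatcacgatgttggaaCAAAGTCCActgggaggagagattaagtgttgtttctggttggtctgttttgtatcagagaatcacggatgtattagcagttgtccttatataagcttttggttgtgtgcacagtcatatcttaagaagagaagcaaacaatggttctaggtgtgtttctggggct
Cyp1a1 (chr9:57697363-57697662, plus strand): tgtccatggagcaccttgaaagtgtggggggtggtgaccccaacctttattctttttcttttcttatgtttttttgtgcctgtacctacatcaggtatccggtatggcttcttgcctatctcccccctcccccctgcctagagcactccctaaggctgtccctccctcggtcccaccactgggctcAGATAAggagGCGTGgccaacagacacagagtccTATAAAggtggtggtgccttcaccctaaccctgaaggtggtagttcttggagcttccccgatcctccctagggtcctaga
Cyp51 (chr5:4104648-4104947, minus strand): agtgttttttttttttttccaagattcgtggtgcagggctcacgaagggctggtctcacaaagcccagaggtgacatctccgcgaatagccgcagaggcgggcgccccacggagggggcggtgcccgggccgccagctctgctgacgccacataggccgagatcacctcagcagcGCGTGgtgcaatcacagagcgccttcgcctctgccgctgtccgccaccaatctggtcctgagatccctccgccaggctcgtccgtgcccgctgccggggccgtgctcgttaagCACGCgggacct

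Cyp3a11 held the HNF4 motif, the nuclear receptor half-site and a TATA motif, and Cyp2c65 held the HNF4 motif and a TATA motif. Cyp1a1 held a GATA motif, an AhR/ARNT core and a TATA motif, and Cyp51 held 2 AhR/ARNT cores and no TATA motif. Windows were found for 77 members, 87 windows in all, against 32851 windows of all genes. The HNF4 motif lay in 12.6% of member windows and 0.475% of all windows. The 11 member windows with it belonged to the Cyp2c cluster (Cyp2c40, Cyp2c65, Cyp2c67, Cyp2c68, Cyp2c69 and Cyp2c70), the Cyp3a cluster (Cyp3a11, Cyp3a16, Cyp3a41a and Cyp3a41b) and Cyp8b1, so they include near-identical neighbours. The TATA motif lay in 39.1% of member and 13.6% of all windows, AGGTCA in 25.3% and 16.3%, AGATAA in 19.5% and 11.2%, and GCGTG in 20.7% and 32.4%. Also searched, and not capitalised, were the CDX motif TTTATG (14.9% of member and 11.9% of all windows), the HNF1 half-site GTTAAT (12.6% and 7.10%), CCAAT (46.0% and 37.4%) and the sterol response element (2.30% and 0.0913%). These motifs were sought on both strands and may overlap one another, and a match describes letters in a window, not binding. The sterol response element was sought only as 1 exact form of 10 bases, and other forms were not searched for. That form lay in 2 of the 87 member windows, those of Cyp2a4 and Cyp2a5, which had 0 reads and 1 read in all. It lay in no window of the sterol group, Cyp51 included, so its share does not describe that group. Whether those windows hold another form of the element was not tested.

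P450 reads made up 0.354 to 0.440% of gene reads in IEL libraries, 0.0835 to 0.144% in LPL libraries and 0.298 to 0.418% in tissue libraries. The 95% Wilson interval around the lowest share was 0.0819 to 0.0852%, which covers counting error only. Summed over the 100 genes, the level was 3341 to 4502 CPM in IEL, 749 to 1151 CPM in LPL and 2897 to 4917 CPM in tissue, so LPL libraries lay apart while IEL and tissue overlapped. The 15 members of highest mean level made up 92.4% of the summed CPM. Behind like sums the makeup differed: Cyp4f14, Cyp3a13 and Cyp51 took most of the tissue signal, while Cyp3a11, Cyp2c65, Cyp2d26, Cyp3a25 and Cyp2b10 took more of the IEL signal, as the stacked plot shows.

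**Figure D1:**
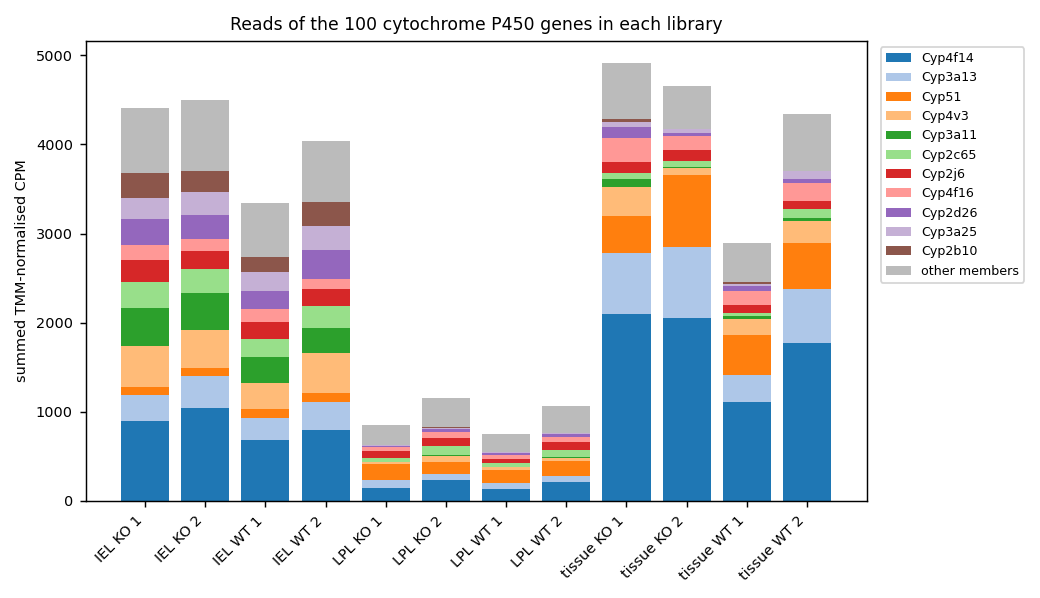
Summed TMM-normalised CPM of the 100 P450 genes (vertical axis) in each of 12 libraries, with the IEL libraries at the left, then LPL, then tissue, and KO left of WT within each. Colours stand for 11 of the members with the highest mean level and grey for the other members. LPL sums reach at most 1151 CPM, and IEL and tissue sums are alike in height but differ in makeup.

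At least 1 CPM was reached by 34 to 35 members in each IEL library, 26 to 31 in each LPL library and 29 to 38 in each tissue library. Of the 54 members that did not pass the filter, 8 had no read in any library: Cyp2a4, Cyp2a12, Cyp2b19, Cyp2c37, Cyp2c69, Cyp2g1, Cyp3a41b and Cyp4a30b. The other 46 had a median of 4 reads over 12 libraries, and 8 of them reached 1 CPM in some library. Cyp7a1, the rate-limiting enzyme of bile acid synthesis, and Cyp8b1, which shapes the bile acid pool, had 9 and 4 reads in all. Cyp1a2, the hepatic partner of Cyp1a1, had 7 reads.

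Differences were tested with edgeR's quasi-likelihood test on 14716 genes with Benjamini-Hochberg adjustment, and a member is said to have risen or fallen where its adjusted p was under 0.05. Preparations were compared over both genotypes, 4 libraries against 4, with log2 differences given ± their standard error. IEL and LPL cells were extracted with a column kit and tissue with TRIzol, so extraction and cell makeup cannot be told apart in any comparison with tissue. In bulk RNA, fewer cells of a type and less RNA per cell cannot be told apart either. The IEL and LPL comparisons with tissue share the same 4 tissue libraries.

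Against tissue, 18 members rose and 8 fell in IEL libraries, where 21.9% of all genes tested rose and 23.1% fell (45% in either direction). The median log2 difference of the members that passed the filter was 0.64, and that of all genes 0.05. Against tissue, 8 members rose and 17 fell in LPL libraries, beside 27.3% and 28% of all genes (55.3% in either direction), with a median of -0.76 beside 0.03 over all genes. Between the cell preparations, 24 members had more and 2 had less signal in IEL than LPL, while 11.5% of all genes had more and 7.92% less (19.4% in either direction). That median was 1.57, against -0.03 over all genes. No overlap between the 4 libraries of each side was seen for 19 members above and 4 below tissue in IEL (22.9% and 22.9% of all genes), for 7 above and 13 below tissue in LPL (26.5% and 25.1%), and for 24 above and 2 below LPL in IEL (17.3% and 15.1%). Members that passed the filter through only one preparation had to differ from the others, so these counts describe the 46 and not the family. The same shares of all genes apply to the counts of each list below.

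Drug-metabolising members came first. Of 16 listed, 13 passed the filter, and 8 rose and 3 fell in IEL against tissue, while 1 rose and 7 fell in LPL. All genes gave 45% and 55.3% in either direction. Between the cell preparations 11 of the 13 were higher in IEL than in LPL (11.5% of all genes) and the other 2 did not pass. Cyp3a11, a major drug-oxidising CYP3A enzyme of mouse and a PXR target, had 426 and 407 CPM in IEL KO libraries and 287 and 285 CPM in IEL WT libraries. It had 1.04 and 10.7 CPM in LPL KO libraries and 3.60 and 4.09 CPM in LPL WT libraries, and 88.7 and 12.7 CPM in tissue KO libraries and 29.0 and 30.9 CPM in tissue WT libraries. IEL libraries lay above every other library, and tissue KO replicate 1 was well above the other tissue libraries. The log2 difference was 3.15 ± 0.67, edgeR adjusted p = 0.0055 for IEL minus tissue, -3.02 ± 0.69, edgeR adjusted p = 0.0054 for LPL minus tissue and 6.16 ± 0.78, edgeR adjusted p = 0.0012 for IEL minus LPL.

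Cyp2b10, the standard CAR target gene, had 289 and 242 CPM in IEL KO libraries and 173 and 273 CPM in IEL WT libraries, and 0.346 and 5.12 CPM in LPL KO libraries and 4.57 and 1.69 CPM in LPL WT libraries. In tissue it had 36.3 and 1.79 CPM in tissue KO libraries and 16.5 and 1.24 CPM in tissue WT libraries. Again no IEL library overlapped another preparation, while tissue fell into a high library and a low library of each genotype. The IEL minus tissue difference was 4.23 ± 1.02, edgeR adjusted p = 0.0096 and the IEL minus LPL difference 6.35 ± 1.14, edgeR adjusted p = 0.0059. LPL minus tissue, at -2.12 ± 1.00, edgeR adjusted p = 0.1004, did not pass. Nr1i3, which encodes CAR, had 44.2 and 33.8 CPM in IEL KO libraries and 32.9 and 41.7 CPM in IEL WT libraries beside 6.63 and 1.32 CPM in tissue KO libraries and 1.98 and 0.494 CPM in tissue WT libraries, and rose in IEL, with a log2 difference of 4.09 ± 0.52 (edgeR adjusted p = 6.4e-04). Nr1i2, which encodes PXR, was lower in IEL than in tissue by a log2 difference of -0.37 ± 0.13, edgeR adjusted p = 0.0440.

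The products of Cyp2c genes oxidise drugs and arachidonic acid. Cyp2c29 had 32.5 and 42.6 CPM in IEL KO libraries and 27.9 and 19.1 CPM in IEL WT libraries, against 0.543 and 0 CPM in tissue KO libraries and 0.172 and 0 CPM in tissue WT libraries. In LPL, reads of Cyp2c29 were seen in KO replicate 2 and in no other LPL library, at 0.185 CPM. Cyp2c66 had 93.6 and 104 CPM in IEL KO libraries and 76.8 and 92.01 CPM in IEL WT libraries, 2.25 and 15.1 CPM in LPL KO libraries and 3.00 and 8.04 CPM in LPL WT libraries, and 1.09 and 0.120 CPM in tissue KO libraries and 0.259 and 0 CPM in tissue WT libraries. It was ordered IEL, LPL, tissue with no overlap, at 8.28 ± 0.84, edgeR adjusted p = 2.8e-04 for IEL minus tissue and 4.57 ± 0.85, edgeR adjusted p = 0.002 for LPL minus tissue. Cyp2c65 had 211 to 283 CPM in IEL, 44.1 to 103 CPM in LPL and 38.0 to 105 CPM in tissue, so only IEL stood apart, by 1.85 ± 0.36, edgeR adjusted p = 0.0038. Cyp2c68 had 53.5 to 72.0 CPM in IEL, 17.1 to 27.7 CPM in LPL and 6.46 to 20.8 CPM in tissue (2.24 ± 0.32, edgeR adjusted p = 0.001 for IEL minus tissue). Cyp2c38 was at 0.829 to 1.84 CPM in IEL and at 0 in every tissue library, at least 16.6-fold higher against a floor of 3 reads over the group. Reads of Cyp2c, Cyp3a, Cyp2d and Cyp4a genes may be split between near-identical neighbours, since the handling of reads with several matches is not given in the sources used here.

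Cyp2c55, a PXR and CAR target that hydroxylates arachidonic acid, had 80.1 and 162 CPM in IEL KO libraries and 78.1 and 97.5 CPM in IEL WT libraries, 1.56 and 8.15 CPM in LPL KO libraries and 2.32 and 3.50 CPM in LPL WT libraries, and 17.7 and 37.2 CPM in tissue KO libraries and 7.93 and 158 CPM in tissue WT libraries. Tissue ran across the IEL range, and IEL minus tissue did not pass (1.11 ± 0.76, edgeR adjusted p = 0.258). LPL lay below every IEL library, at 4.75 ± 0.89, edgeR adjusted p = 0.0073 for IEL minus LPL.

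Other Cyp3a and Cyp2d genes divided in direction. Cyp3a25 had 211 to 260.5 CPM in IEL, 5.36 to 15.5 CPM in LPL and 23.8 to 82.2 CPM in tissue, so the 3 preparations did not overlap and IEL was highest. Cyp2d26 had the same order, at 203 to 329, 12.3 to 37.4 and 33.0 to 123.4 CPM, though LPL overlapped tissue. Cyp3a13, a CYP3A enzyme found in mouse intestine, went the other way: it had 295 and 355 CPM in IEL KO libraries and 247 and 309 CPM in IEL WT libraries, 80.0 and 65.3 CPM in LPL KO libraries and 66.2 and 68.6 CPM in LPL WT libraries, and 682 and 797 CPM in tissue KO libraries and 304 and 606 CPM in tissue WT libraries. Tissue was higher than IEL apart from tissue WT replicate 1, and LPL lay below both. The differences were -0.95 ± 0.22, edgeR adjusted p = 0.0079 for IEL minus tissue and -3.05 ± 0.23, edgeR adjusted p = 2.7e-05 for LPL minus tissue. Cyp3a44 had 0.612 and 0.829 CPM in IEL KO libraries and 0.0891 and 0.699 CPM in IEL WT libraries, and 6.63 and 7.77 CPM in tissue KO libraries and 2.33 and 12.3 CPM in tissue WT libraries, with 1 read in the 4 LPL libraries. It was lower in IEL than in tissue, with a log2 difference of -3.75 ± 0.72, edgeR adjusted p = 0.0045.

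Cyp2e1, which oxidises ethanol and small organic molecules, had 2.24 and 1.20 CPM in IEL KO libraries and 2.58 and 1.80 CPM in IEL WT libraries, against 1.85 and 41.4 CPM in tissue KO libraries and 1.81 and 71.7 CPM in tissue WT libraries. Its fall in IEL, -3.85 ± 1.15, edgeR adjusted p = 0.0237, came from the tissue libraries numbered 2, since IEL overlapped the tissue libraries numbered 1. Cyp2s1, an epithelial P450 outside the liver, had 86.6 to 97.6 CPM in IEL, 39.4 to 102 CPM in LPL and 73.6 to 128 CPM in tissue and passed in none of these comparisons.

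**Figure D2:**
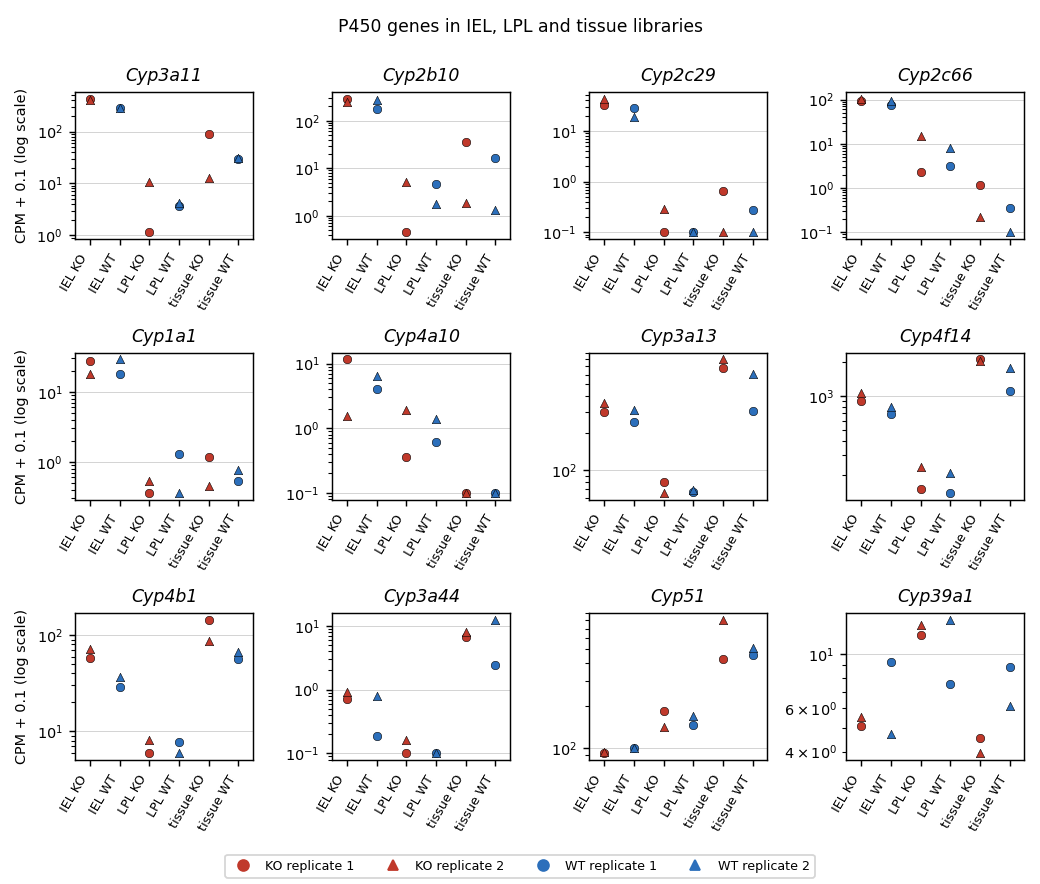
CPM plus 0.1 on a log axis for 12 P450 genes, 1 point per library, grouped from left to right as IEL, LPL and tissue with KO (red) left of WT (blue); circles are replicate 1 and triangles replicate 2. In the upper row the IEL points lie above all others, at 285 to 426 CPM for Cyp3a11, while for Cyp51 the IEL points are the lowest and tissue the highest.

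Of the 3 AhR target genes listed, Cyp1a1 and Cyp1b1 passed the filter. Cyp1a1, the gene most used as a readout of AhR activity, had 27.7 and 17.9 CPM in IEL KO libraries and 17.7 and 28.9 CPM in IEL WT libraries. It had 0.260 and 0.432 CPM in LPL KO libraries and 1.20 and 0.259 CPM in LPL WT libraries, and 1.09 and 0.359 CPM in tissue KO libraries and 0.431 and 0.659 CPM in tissue WT libraries. IEL libraries lay far above all others, and LPL and tissue overlapped. IEL exceeded tissue by 5.16 ± 0.51, edgeR adjusted p = 2.6e-04 and LPL by 5.48 ± 0.52, edgeR adjusted p = 3.2e-04, on the log2 scale. Ahr itself had 32.6 to 39.7 CPM in IEL, 18.6 to 38.2 CPM in LPL and 11.0 to 12.2 CPM in tissue, and rose in IEL (1.63 ± 0.18, edgeR adjusted p = 3.6e-04) and in LPL (1.26 ± 0.18, edgeR adjusted p = 4.3e-04). Ahrr, the AhR repressor gene, had 3.65 to 8.79 CPM in IEL, 0.185 to 1.35 CPM in LPL and 0.652 to 1.79 CPM in tissue, and rose in IEL (2.25 ± 0.57, edgeR adjusted p = 0.0124). Cyp1b1, which oxidises oestradiol and is also a gene of stromal cells, had 1.57 to 2.00 CPM in IEL and 1.09 to 3.59 CPM in tissue. In LPL Cyp1b1 had 0.0865 and 0 CPM in KO and 2.10 and 0.130 CPM in WT libraries, so WT replicate 1 alone was at the level of tissue.

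Of 17 fatty acid and eicosanoid members, 12 passed the filter. Against tissue, 4 rose and 2 fell in IEL (45% of all genes in either direction) and 3 rose and 5 fell in LPL (55.3%). Between the cell preparations, 6 had more signal in IEL than LPL, where 11.5% of all genes did. Cyp4f14, which hydroxylates leukotriene B4 and other lipids, had 893 and 1047 CPM in IEL KO libraries and 684 and 799 CPM in IEL WT libraries, 149.6 and 234 CPM in LPL KO libraries and 138 and 208 CPM in LPL WT libraries, and 2095 and 2047 CPM in tissue KO libraries and 1105 and 1771 CPM in tissue WT libraries. The 3 preparations did not overlap and tissue was highest, with -1.02 ± 0.23, edgeR adjusted p = 0.0073 for IEL minus tissue and -3.24 ± 0.25, edgeR adjusted p = 2.7e-05 for LPL minus tissue. Cyp4b1, which hydroxylates medium-chain fatty acids, had 57.7 and 72.6 CPM in IEL KO libraries and 29.1 and 37.1 CPM in IEL WT libraries, 5.80 and 7.96 CPM in LPL KO libraries and 7.57 and 5.84 CPM in LPL WT libraries, and 143.9 and 86.4 CPM in tissue KO libraries and 55.9 and 66.8 CPM in tissue WT libraries. LPL was lowest without overlap, at -3.62 ± 0.22, edgeR adjusted p = 1.3e-05 for LPL minus tissue.

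Cyp4a10, a PPARα target that hydroxylates fatty acids, had 11.5 and 1.47 CPM in IEL KO libraries and 3.92 and 6.29 CPM in IEL WT libraries, and 0.260 and 1.79 CPM in LPL KO libraries and 0.524 and 1.30 CPM in LPL WT libraries. Its reads were 0 in every tissue library, so IEL was at least 79.9-fold and LPL at least 13.3-fold higher than a floor of 3 reads over the tissue group. Ppara had 48.9 to 74.4 CPM in IEL, 25.3 to 62.9 CPM in LPL and 19.0 to 60.9 CPM in tissue and passed in none of these comparisons. Cyp4f15 was at 1.01 to 3.39 CPM in IEL and 0.899 to 2.46 CPM in LPL, with 1 read in the 4 tissue libraries.

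Cyp2j6, a CYP2J enzyme of the intestine, had 186 to 257 CPM in IEL, 42.8 to 96.3 CPM in LPL and 82.9 to 123.4 CPM in tissue, and IEL was higher than tissue by 1.02 ± 0.21, edgeR adjusted p = 0.0048. Cyp2j9 had 4.79 to 6.93 CPM in IEL, 2.02 to 4.15 CPM in LPL and 0.742 to 1.72 CPM in tissue, rising in IEL (2.33 ± 0.37, edgeR adjusted p = 0.0015) and in LPL (1.35 ± 0.36, edgeR adjusted p = 0.0121). Cyp4v3, whose human counterpart is a fatty acid hydroxylase mutated in a crystalline retinal dystrophy, had 291 to 463 CPM in IEL, 27.3 to 60.1 CPM in LPL and 78.3 to 325 CPM in tissue. LPL was below both, and IEL minus tissue did not pass (0.97 ± 0.42, edgeR adjusted p = 0.0877). Cyp4f16 and Cyp4f13 fell in LPL, with log2 differences of -1.88 and -1.73, and Cyp4f40 passed in none of the 3 comparisons.

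Of 13 sterol, bile acid and steroid members, 5 passed the filter. Against tissue, 1 fell in IEL, and 1 rose and 3 fell in LPL, beside 45% and 55.3% of all genes in either direction. Cyp51, the lanosterol demethylase of cholesterol synthesis, had 91.5 and 93.0 CPM in IEL KO libraries and 100.3 and 100.2 CPM in IEL WT libraries, 183 and 140.5 CPM in LPL KO libraries and 146 and 169.6 CPM in LPL WT libraries, and 425 and 807 CPM in tissue KO libraries and 457 and 513 CPM in tissue WT libraries. It was ordered tissue, LPL, IEL with no overlap, the reverse of Cyp2c66. The difference was -2.51 ± 0.21, edgeR adjusted p = 1.5e-04 for IEL minus tissue, -1.78 ± 0.21, edgeR adjusted p = 1.7e-04 for LPL minus tissue and -0.73 ± 0.20, edgeR adjusted p = 0.0344 for IEL minus LPL. The last of these lost its call when any of several single libraries was left out.

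Cyp27a1, the mitochondrial sterol hydroxylase, had 28.8 to 52.1 CPM in IEL, 7.41 to 11.6 CPM in LPL and 18.2 to 45.6 CPM in tissue, and fell in LPL (-1.71 ± 0.31, edgeR adjusted p = 0.0016). Cyp39a1, an oxysterol hydroxylase of bile acid synthesis, had 4.60 to 9.18 CPM in IEL, 7.42 to 13.7 CPM in LPL and 3.83 to 8.80 CPM in tissue. It rose in LPL (1.05 ± 0.29, edgeR adjusted p = 0.0133), although LPL WT replicate 1 lay within the tissue range. Cyp7b1, another oxysterol hydroxylase, was at 0 in every LPL library and at 0.217 to 2.03 CPM in tissue.

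Cyp24a1, which breaks down active vitamin D, had 2.45 and 0.829 CPM in IEL KO libraries and 0.0891 and 0.799 CPM in IEL WT libraries, 1.30 and 3.52 CPM in LPL KO libraries and 1.12 and 3.05 CPM in LPL WT libraries, and 0 and 0.239 CPM in tissue KO libraries and 0 and 0 CPM in tissue WT libraries. It rose in IEL (4.54 ± 1.27, edgeR adjusted p = 0.0206) and in LPL (5.94 ± 1.20, edgeR adjusted p = 0.0038), with IEL WT replicate 1 inside the tissue range. Vdr, the vitamin D receptor gene, had 287 to 371 CPM in IEL, 174 to 277 CPM in LPL and 267 to 379 CPM in tissue and passed in none of these comparisons. Cyp26b1, which breaks down retinoic acid, had 0.200 to 0.460 CPM in IEL, 0.324 to 2.85 CPM in LPL and 1.20 to 2.76 CPM in tissue and fell in IEL (-2.63 ± 0.83, edgeR adjusted p = 0.0292). Among the 45 members outside these lists, 11 passed. Cyp20a1, a P450 with no settled substrate, was lower in IEL than in LPL (-0.74 ± 0.22, edgeR adjusted p = 0.0464), a call lost without any one of the 8 cell libraries.

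**Figure D3:**
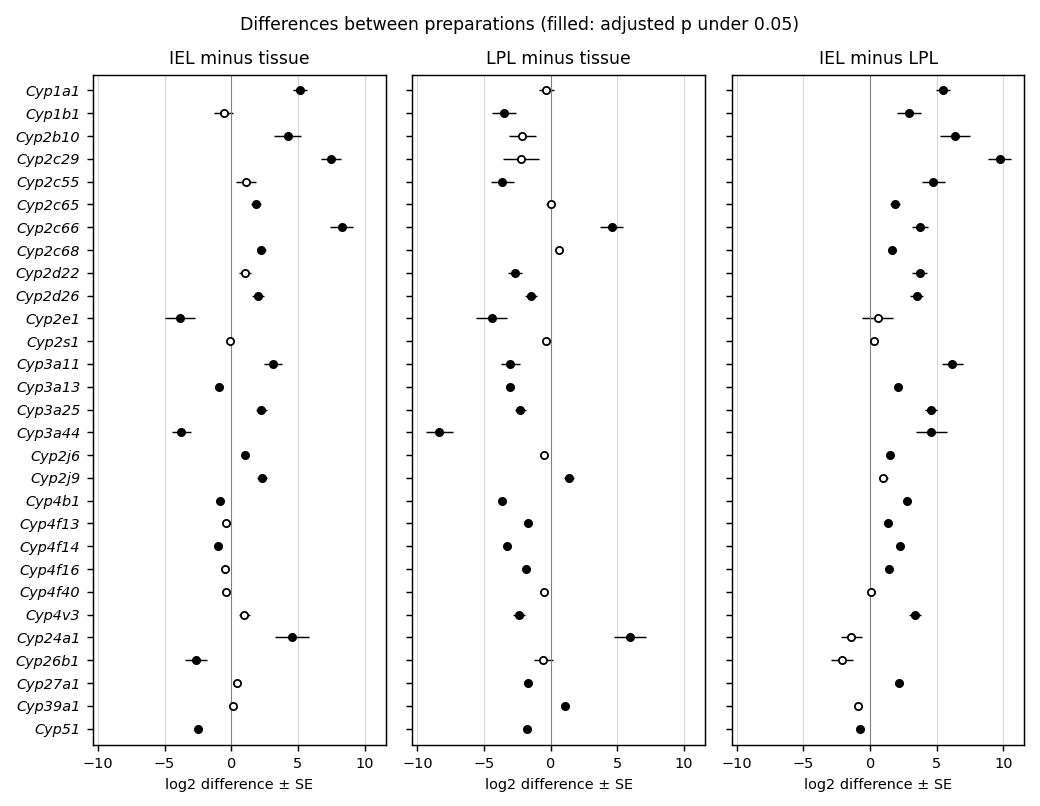
Log2 difference ± SE (horizontal axis) of 29 P450 genes for IEL minus tissue (left), LPL minus tissue (middle) and IEL minus LPL (right); filled points had an edgeR adjusted p under 0.05. Cyp3a11 lies at 3.15 in the left panel and -3.02 in the middle, and Cyp51 lies left of 0 in all 3 panels.

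Epithelial and regional genes also differed between preparations, not all in the direction of the P450 genes. The 6 enterocyte markers summed to 7287 to 11185 CPM in IEL, 1009.9 to 1972 CPM in LPL and 9641 to 25350.1 CPM in tissue, and 4 crypt stem markers to 289 to 597 CPM, 415 to 572 CPM and 81.1 to 193 CPM in the same order. Of the 6 enterocyte markers, 1 rose and 3 fell in IEL against tissue, with IEL and tissue sums that overlapped, and all 6 fell in LPL against tissue. The 7 proximal intestine markers summed to 3783 to 6814 CPM in IEL, 491 to 1076 CPM in LPL and 2812 to 5002 CPM in tissue, and against tissue 4 rose and 3 fell in IEL and 2 rose and 2 fell in LPL. One of those that rose in IEL was Lct, which encodes lactase and had 1122 to 1824 CPM in IEL, 6.23 to 52.9 CPM in LPL and 0.330 to 211 CPM in tissue. The 6 distal intestine markers summed to 1199 to 1808 CPM in IEL, 462 to 619.9 CPM in LPL and 8819.9 to 19783 CPM in tissue, and against tissue 5 fell in IEL and 6 in LPL. Their part in the P450 differences was not tested. Xist was at 196 to 231 CPM in IEL and 245 to 383 CPM in LPL libraries, which held at most 0.0617 CPM of Y-linked RNA. Tissue libraries numbered 2 carried Y-linked RNA and had Xist at 0 (KO) and 0.247 (WT) CPM. They thus differed in sex from every IEL and LPL library, and sex was not balanced between preparations either.

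The P450 system beyond the enzymes showed a mixed picture. Of 8 electron donor genes, 3 rose and 2 fell in IEL against tissue, and 2 rose and 4 fell in LPL against tissue. More signal in IEL than LPL was seen for 5 of them. All genes gave 45% and 55.3% in either direction against tissue, and 11.5% with more signal in IEL than LPL. Por, the reductase that serves the microsomal P450s, averaged 170.0 ± 28.4 CPM in IEL, 87.1 ± 21.7 CPM in LPL and 263 ± 71.2 CPM in tissue (SD, n = 4 each), and was lower than tissue in both IEL (-0.60 ± 0.20, edgeR adjusted p = 0.0384) and LPL (-1.56 ± 0.21, edgeR adjusted p = 3.3e-04). Both epoxide hydrolase genes, whose products open P450-made epoxides, rose in IEL: Ephx2 had 202 to 320.3 CPM in IEL, 23.3 to 40.1 CPM in LPL and 42.8 to 99.9 CPM in tissue (1.97 ± 0.27, edgeR adjusted p = 7.9e-04 for IEL minus tissue). Of 11 haem genes, 4 rose and 3 fell in IEL, and 3 rose and 2 fell in LPL, against tissue. In either direction 45% and 55.3% of all genes did so. Alas1, the rate-limiting enzyme of haem synthesis, fell in both, with log2 differences of -0.80 in IEL and -1.18 in LPL.

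Of 15 receptor and transcription factor genes, 5 rose and 5 fell in IEL, and 4 rose and 7 fell in LPL, against tissue. In either direction 45% and 55.3% of all genes did so. Gata4 had 151 to 174.9 CPM in IEL, 99.8 to 201 CPM in LPL and 1.48 to 48.9 CPM in tissue, a rise in both cell preparations. Hnf4a had 551 to 819 CPM in IEL, 499.6 to 939 CPM in LPL and 1233 to 1988 CPM in tissue and was lower in both. Nr1h4, which encodes the bile acid receptor FXR, was lower than tissue in IEL (-2.19 ± 0.21, edgeR adjusted p = 2.5e-04).

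Tissue libraries with the same replicate number resembled each other more than libraries of the same genotype. Tissue replicates numbered 1 had Lct at 211 (KO) and 81.1 (WT) CPM and those numbered 2 at 0.359 (KO) and 0.330 (WT) CPM. The Y-linked gene Ddx3y was at 0.109 (KO) and 0 (WT) CPM in the libraries numbered 1 and at 38.6 (KO) and 34.0 (WT) CPM in those numbered 2. Lct and Ddx3y thus each differed with the replicate number. The ileal bile acid transporter gene Slc10a2 was lower in the libraries numbered 1, at 344 (KO) and 208 (WT) CPM, than in those numbered 2, at 1237 (KO) and 1074 (WT) CPM. Sums of the regional lists did not separate the numbers. The 7 proximal markers summed to 5002 (KO) and 2812 (WT) CPM in number 1 and 4274 (KO) and 3270 (WT) CPM in number 2. The 6 distal markers summed to 12549 (KO) and 8820 (WT) CPM in number 1 and 19783 (KO) and 11357 (WT) CPM in number 2.

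Several P450 genes followed this split, given as a description with no test. Cyp2b10 was 17.4-fold, Cyp2c66 11.2-fold and Cyp17a1, a steroid hydroxylase, 5.53-fold higher in the tissue libraries numbered 1 than in those numbered 2. Cyp2e1 was 30.9-fold and Cyp2c55 7.61-fold higher in the libraries numbered 2. Of the 46 members, 10 were higher in both libraries numbered 1 and 13 in both numbered 2, where all genes gave 25.5% and 31.8%. The split was thus no more common among the members than among all genes. Tissue KO replicate 2 alone held most reads of several low members: Cyp2d9 was at 6.34 CPM, Cyp2d34 at 5.74 CPM, Cyp11b1, which completes glucocorticoid synthesis, at 2.63 CPM, and Cyp4a29 at 2.15 CPM. Each of these was at most 0.659 CPM in the other tissue libraries.

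**Figure D4:**
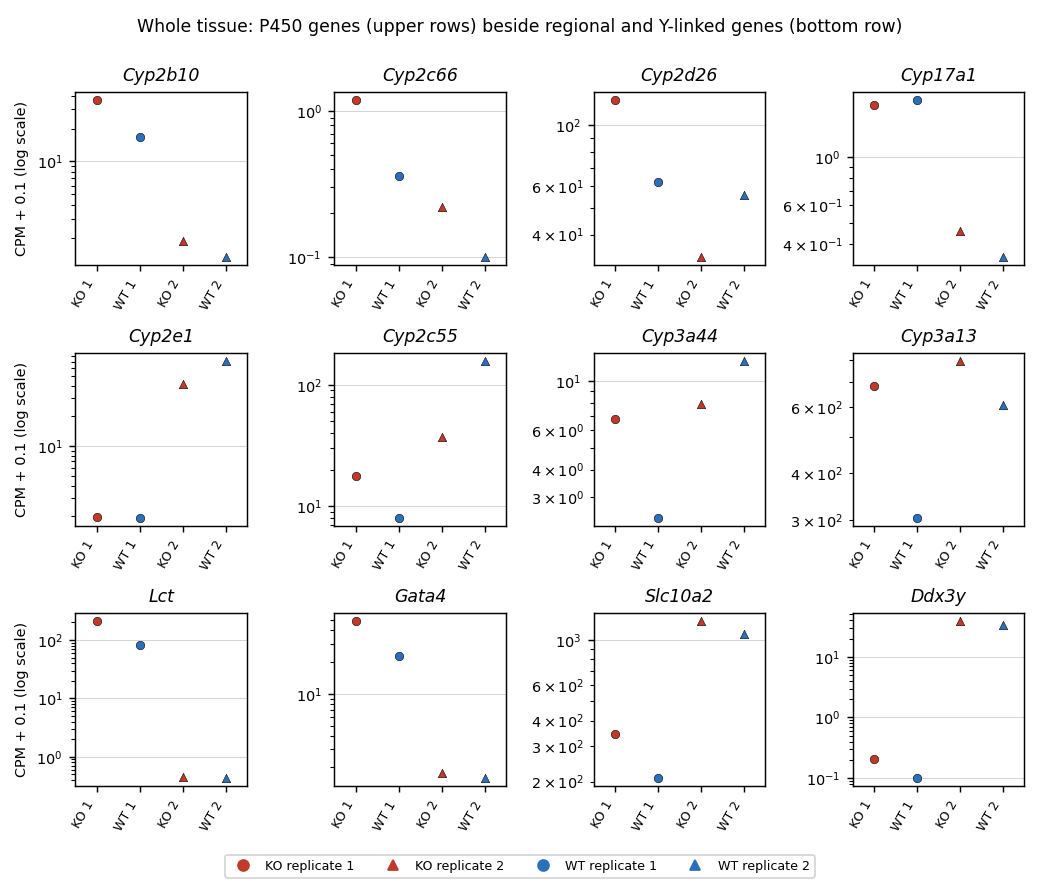
CPM plus 0.1 on a log axis in the 4 whole-tissue libraries, ordered KO 1, WT 1, KO 2 and WT 2, for 8 P450 genes (upper rows) and the genes Lct, Gata4, Slc10a2 and Ddx3y (bottom row); KO is red, WT blue. Cyp2b10 and Lct are high in both libraries numbered 1, and Cyp2e1, Slc10a2 and Ddx3y in both numbered 2.

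Loss of lnc13 was compared with WT within each preparation, 2 libraries against 2. No member passed edgeR's test in tissue, LPL or IEL, nor did any of the 14716 genes (0% in each). At an unadjusted p under 0.05 there were 2 members in tissue, 2 in LPL and 2 in IEL, where 3.15%, 3.04% and 0.815% of all genes met that mark. DESeq2 also called no member in any preparation and gave 3, 2 and 2 of 92 members at an unadjusted p under 0.05. Of 22785 genes, DESeq2 gave 501, 627 and 132 at that mark. At an adjusted p under 0.05, DESeq2 called 3 genes higher and 1 lower in tissue KO libraries. It also called 1 gene lower in LPL and 1 lower in IEL. Leaving out 1 library moved the edgeR counts. The most members were found without tissue KO replicate 1 in tissue, LPL WT replicate 2 in LPL and IEL WT replicate 2 in IEL. Each of those fits left 1 library in a group, and the count of all genes at that mark rose as well. With the replicate number as a block the edgeR counts were 6, 5 and 2 of 46 members, and 1727, 678 and 569 of 14716 genes. The median log2 difference of the 46 members was 0.08 for tissue, 0.13 for LPL and 0.17 for IEL, beside -0.01, 0.01 and -0.02 over all genes. All adjusted p-values by edgeR for the genes named below were 1.

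Cyp4b1 had the smallest unadjusted p of the 46 members in both tissue and IEL. As listed above, KO exceeded WT in both tissue and IEL without overlap, and KO and WT overlapped in LPL. The log2 difference, KO minus WT, was 0.91 ± 0.28, unadjusted p = 0.0099 in tissue, 0.05 ± 0.30, unadjusted p = 0.882 in LPL and 0.98 ± 0.28, unadjusted p = 0.007 in IEL (edgeR quasi-likelihood). Within tissue replicate numbers, log2 of KO over WT, with 0.5 CPM added to each, was 1.36 for number 1 and 0.37 for number 2. In IEL it was 0.98 and 0.96. The KO effect on Cyp4b1 differed between IEL and LPL by 0.93 ± 0.41 (edgeR unadjusted p = 0.0490, adjusted p = 1).

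Cyp3a13 was higher in tissue KO than in tissue WT libraries by 0.70 ± 0.31, unadjusted p = 0.0481 (edgeR), with 1.16 between the replicates numbered 1 and 0.40 between those numbered 2. Cyp4f14 was also above WT in both tissue KO libraries (0.53 ± 0.32, unadjusted p = 0.139) and in both IEL KO libraries (0.39 ± 0.32, unadjusted p = 0.263). Cyp39a1 was lower in both tissue KO libraries, 4.46 and 3.83 CPM against 8.80 and 6.02 CPM in WT (-0.84 ± 0.41, unadjusted p = 0.0742). The enterocyte markers summed to 20010 and 25350 CPM in the tissue KO libraries and to 9641 and 22633 CPM in the tissue WT libraries, and their part in these differences was not tested.

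In LPL the 2 members were Cyp1b1 and Cyp4f18. Cyp4f18, which hydroxylates leukotriene B4 in mouse leukocytes, had 0.519 and 0.494 CPM in KO libraries and 9.22 and 0.519 CPM in WT libraries. For both genes the whole difference lay in WT replicate 1: -4.54 ± 1.47, unadjusted p = 0.0127 for Cyp1b1 and -3.24 ± 1.15, unadjusted p = 0.0197 for Cyp4f18 (edgeR). In the same library 6 macrophage markers summed to 86.8 CPM, against 3.20 to 7.07 CPM in the other LPL libraries, and 4 B cell markers to 128 CPM, against 7.07 to 18.7 CPM. Their part was not tested.

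In IEL, 12 members were higher and 4 lower in both KO libraries than in both WT libraries, where 14.8% and 12.3% of all genes were. In tissue 6 were higher and 2 lower (13.3% and 12.3% of all genes) and in LPL 1 was higher and 2 lower (9.89% and 8.6%). The 12 in IEL included Cyp3a11, Cyp2c29, Cyp2c65, Cyp2c66, Cyp2c68, Cyp2j6, Cyp4b1 and Cyp4f14, and all but Cyp4b1 had an unadjusted p above 0.05. Cyp3a11 differed by 0.54 ± 0.87, unadjusted p = 0.547 and Cyp2c29 by 0.68 ± 0.67, unadjusted p = 0.344 (edgeR). The enterocyte markers summed to 10076 and 11185 CPM in the IEL KO libraries and 7287 and 9689 CPM in the IEL WT libraries, also without overlap, and their part was not tested. Cyp2w1, a low gene, had 0.102 and 0 CPM in IEL KO and 0.980 and 0.4995 CPM in IEL WT libraries (-3.66 ± 1.21, unadjusted p = 0.0140, edgeR).

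Whether the lnc13 effect differed between preparations was tested by interaction terms. No member passed in LPL against tissue, IEL against tissue or IEL against LPL by edgeR, and no gene did (0%). At an unadjusted p under 0.05 there were 1, 0 and 3 members, where 1.96%, 0.836% and 0.761% of all genes met that mark. DESeq2, which also called no member, gave 2, 0 and 3 of 92 members, and 372, 125 and 192 of 22785 genes. With 2 libraries per genotype, a missed threshold does not show that KO and WT were alike.

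**Figure D5:**
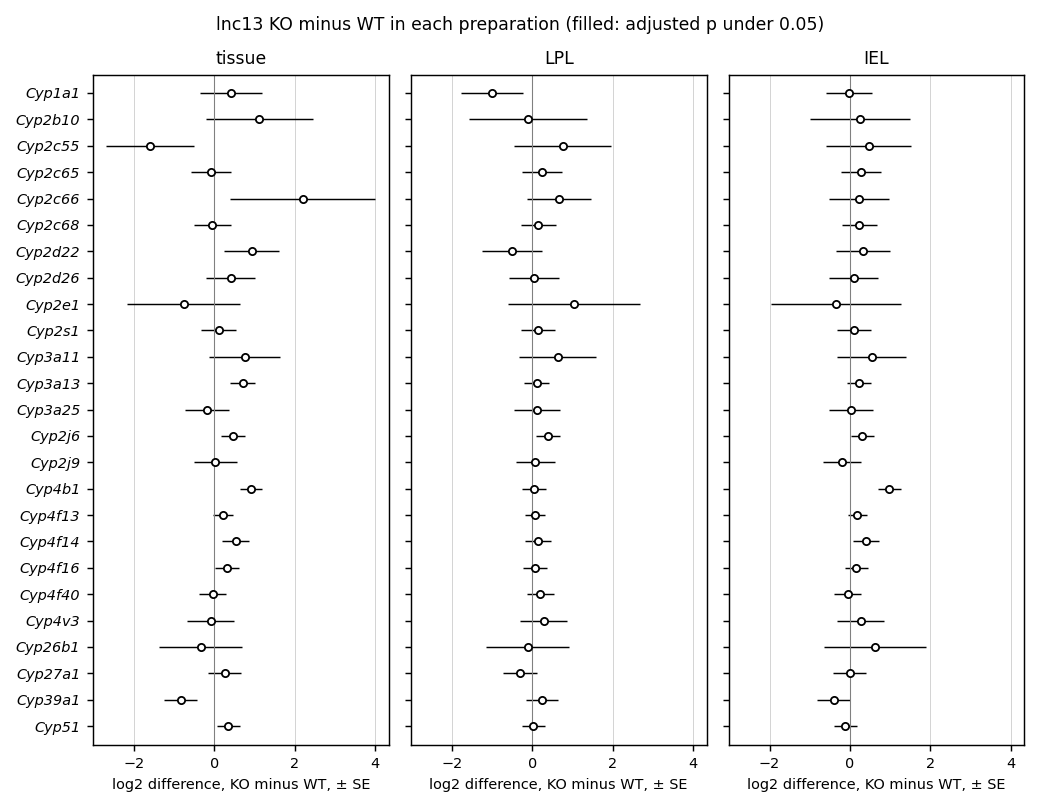
Log2 difference, KO minus WT, ± SE (horizontal axis) for 25 P450 genes in tissue (left), LPL (middle) and IEL (right); open points mark an edgeR adjusted p of 0.05 or more, and no point is filled. Cyp4b1 lies at 0.91 for tissue, 0.05 for LPL and 0.98 for IEL.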

How the data were processed

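Poly(A) RNA of 12 tissue, LPL and IEL libraries had been sequenced from NEBNext Ultra II RNA libraries, per the labels. The authors deposited raw counts of reads for each Entrez gene from featureCounts. Alignment was with HISAT2 per the file headers, although TopHat and DESeq stand in the submitters' processing notes, which give the build as mm10. Strand use is not given in the sources used here. Symbols were found for 25275 of 27179 IDs, and coordinates are GRCm38.p6. The other 24 samples, CD8 T cell and RNA purification libraries, were not analysed here.

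All 12 libraries entered a single fit of 6 groups in edgeR 4.0.16 quasi-likelihood in R 4.3.3 (TMM factors 0.730 to 1.26, filterByExpr, Benjamini-Hochberg over 14716 genes, threshold 0.05), with DESeq2 1.42.0 as an alternative. The code was tested on simulated counts. The labels call replicates biological without naming animals, and where they were not separate animals the p-values measure only the spread between these samples. Replicate numbers were not used as a block in the main fit, and a block was run as an alternative.

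Members and lists were chosen with earlier results of these data known. Named were the 15 members of highest mean CPM, per preparation comparison up to 10 that rose and 10 that fell (mean of at least 2 CPM, no overlap), per KO comparison the 8 of smallest unadjusted p (at least 1 CPM), and members of each role list. Promoter windows, the members at 0, and the members described within tissue were chosen after their values were seen.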

Additional observations from a re-analysis of the deposited data

Results flagged for a closer look

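Among 95 sets of the 4 libraries of a preparation, both genotypes together, 5 P450 values lay far from the other 3 libraries by Dixon's test. Chance gives about 1 in 20, so this count is about what chance alone would give. In IEL KO replicate 2, Cyp2u1, a long-chain fatty acid hydroxylase gene, was at 10.1 CPM, against 3.48 to 4.50 CPM in the other IEL libraries, and Cyp2j9 was at 4.79 CPM, against 6.59 to 6.93 CPM. In IEL WT replicate 1, Cyp4f13 was at 39.1 CPM, against 53.2 to 55.1 CPM in the others. In LPL KO replicate 2, Cyp2e1 was at 2.72 CPM, against 0.824 to 0.973 CPM. In LPL WT replicate 1, Cyp4f18 was at 9.22 CPM, against 0.494 to 0.519 CPM.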

How the results depend on the processing

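The 26 members called between IEL and tissue became 16 within KO and 15 within WT libraries. The 25 between LPL and tissue became 17 within KO and 16 within WT, and the 26 between IEL and LPL became 16 and 15. These fits compare 2 libraries with 2. All genes called also became fewer. In IEL against tissue 1581 were higher and 2031 lower within KO, and 1361 and 1581 within WT, from 3230 and 3399. In LPL against tissue they were 2907 and 3197 within KO, and 1905 and 2323 within WT, from 4016 and 4118. In IEL against LPL they were 805 and 345 within KO, and 369 and 131 within WT, from 1691 and 1165. Leaving out each of the 12 libraries in turn moved the counts between preparations and gave no member a call in any KO or interaction comparison. Each such fit left 1 library in a group and kept 48 to 54 members, so its counts are not set beside those of the 46. DESeq2 gave 28 of 60, 27 of 60 and 26 of 50 members for the 3 preparation comparisons. All genes higher and lower by DESeq2 were 3001 and 3877 of 17100, 3696 and 4509 of 17100, and 2034 and 1610 of 15789. In the KO comparisons a block joined the KO and WT libraries of a preparation with the same replicate number, and no member was called. Between preparations the block joined libraries of the same genotype and number, and 23, 23 and 21 members were called. The 4 Y-linked genes summed to 145 (KO) and 137 (WT) CPM in tissue libraries numbered 2. The cell libraries joined to those had at most 0.0617 CPM. All genes higher and lower with the block were 2710 and 2937, 3511 and 3625, and 1304 and 746. For KO against WT, the count of all genes at an unadjusted p under 0.05 by edgeR was 1727 for tissue, 678 for LPL and 569 for IEL with the block. Without the block it was 463, 448 and 120. After removal of group means, KO and WT libraries of the same number had a correlation of 0.638 (tissue), 0.301 (LPL) and 0.465 (IEL). Across preparations, libraries of the same genotype and number had correlations of -0.362 to 0.139. With 2 numbers, neither set of correlations can show pairing. Alternatives chosen after seeing the data were scaling to library size alone and use of a single tissue number. Library size alone moved the median of all genes to 0.24 for IEL minus tissue, 0.45 for LPL minus tissue, -0.26 for IEL minus LPL and -0.29 for KO minus WT in tissue, and all genes then split into 3750 higher and 2498 lower in IEL against tissue (3230 and 3399 with TMM), 5928 and 2661 in LPL against tissue (4016 and 4118) and 1010 and 1968 in IEL against LPL (1691 and 1165). Members then split 18 and 7, 11 and 16, and 23 and 3. With the tissue libraries of a single number, each tissue group held 1 library, so counts of calls are not given. Of 42 named gene results, 0 reversed under the alternatives run. Of the 38 that were called, 27 kept their call under every alternative run and 11 lost it under at least one, among them Cyp3a44, Cyp20a1 and Cyp51 in IEL against LPL, and Cyp2b10 in IEL against tissue, at 3.80 within KO and 4.66 within WT libraries. The other 4, KO minus WT results with no call, gained none, and Cyp4f18 in LPL ranged from -4.17 to -0.04. Depth limits members near 1 CPM: 3 reads equal 0.185 to 0.359 CPM.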
